A study of Mus musculus with 8 samples.

Results

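Prostaglandin E2 is a lipid mediator that macrophages make after contact with bacteria. Here the 10 genes of its synthesis, sensing and breakdown were followed by symbol, out of 48709 genes in the deposited count table. They were Pla2g4a, Ptgs1, Ptgs2, Ptges, Ptges2, Ptges3, Ptger2, Ptger4, Hpgd and Alox5, and all 10 were present. Loss of Batf2, an AP-1 family transcription factor, went with a higher level of the inducible terminal synthase Ptges and a lower level of the EP2 receptor gene Ptger2. Ptges was called under all 16 alternative fits. Ptger2, at the edge of the threshold, was called under 4 of them and lost when any single library was left out. Ptgs2, the abundant cyclooxygenase gene, was lower on average with overlapping groups. It did not pass the test between genotypes, and passed when libraries were matched by their position in the table, a matching that the labels do not give.

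The cells were primary alveolar macrophages from Batf2-/- mice and from WT C57BL/6J mice, 4 libraries of each. Both genotypes had been given IFNg (10 ng/mL) during 4 h and then 20% K. pneumoniae supernatant during 6 h, so no unstimulated or singly stimulated cells served as a baseline. Each library was a pool from 4 mice, and the labels used here give neither age nor sex of the animals. Whether Batf2 was also absent from other cells of those mice during their life was not given either, so effects on the macrophages' development and on their stimulation cannot be told apart.

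Prostaglandin E2 is built in steps. Cytosolic phospholipase A2 (Pla2g4a) frees arachidonic acid from membranes, a cyclooxygenase (constitutive Ptgs1 or inducible Ptgs2) turns it into prostaglandin H2, and a terminal synthase (Ptges, Ptges2 or Ptges3) isomerizes that to prostaglandin E2. The lipid acts through G protein-coupled receptors, of which EP2 (Ptger2) and EP4 (Ptger4) raise cyclic AMP, and 15-hydroxyprostaglandin dehydrogenase (Hpgd) inactivates it. Alox5, the 5-lipoxygenase, draws on the same arachidonic acid to make leukotrienes. In lung macrophages prostaglandin E2 is known to restrain phagocytosis and killing of bacteria through EP2 and cyclic AMP.

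The sequences upstream of Ptgs2, Ptges and Ptger2 are shown because these are the induced cyclooxygenase gene and the pair of genes called between genotypes. Each is the 250 bases before the gene start of RefSeq on GRCm38.p6, written 5′ to 3′ on the gene's strand. For Ptgs2 the window was chr1:150099781-150100030 on the plus strand, for Ptges chr2:30903298-30903547 on the minus strand and for Ptger2 chr14:44987861-44988110 on the plus strand. The Ptges window is upstream of the RefSeq start only. It lies inside the gene span given below, which is GENCODE's and starts at 30929863 on the minus strand. Capitals mark every match in these stretches, on either strand, to TTNNGNAA (a C/EBP motif) and to GTGGGNG (part of the Egr1 motif, overlapping GC boxes).
Ptgs2: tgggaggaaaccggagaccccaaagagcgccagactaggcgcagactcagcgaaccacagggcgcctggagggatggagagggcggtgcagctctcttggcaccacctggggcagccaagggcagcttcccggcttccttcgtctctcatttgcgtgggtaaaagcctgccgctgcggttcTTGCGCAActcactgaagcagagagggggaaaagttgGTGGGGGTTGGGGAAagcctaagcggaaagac
Ptges: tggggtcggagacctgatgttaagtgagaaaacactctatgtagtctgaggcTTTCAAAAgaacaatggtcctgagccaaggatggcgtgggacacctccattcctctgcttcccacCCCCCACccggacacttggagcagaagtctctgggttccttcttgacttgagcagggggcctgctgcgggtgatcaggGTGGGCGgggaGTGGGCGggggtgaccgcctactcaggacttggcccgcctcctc
Ptger2: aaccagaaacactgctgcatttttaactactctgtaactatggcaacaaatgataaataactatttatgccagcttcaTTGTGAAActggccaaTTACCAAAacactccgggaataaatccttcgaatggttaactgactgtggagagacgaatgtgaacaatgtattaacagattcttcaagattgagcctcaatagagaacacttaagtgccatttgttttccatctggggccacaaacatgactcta
In Ptgs2 the first capitals are a C/EBP match, and the longer run joins a GTGGGNG match to an adjoining C/EBP match. In Ptges the first run is a C/EBP match and the other 3 are GTGGGNG matches, of which the last 2 stand close to the start, each overlapping a GC box (GGGCGG). In Ptger2 both runs are C/EBP matches. A further match, to the cyclic AMP response element core ACGTCA, lies in Ptgs2 just after the start and is not printed.

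All 10 genes had a promoter window of 300 bases in the RefSeq table (250 before and 50 after the start), with 11 windows in all because Pla2g4a had an alternative start. The AP-1 motif TGANTCA was in 0 of the 11 windows and in 7.81% of all 32851 windows, counting both strands. The composite motif counted had part of an IRF site, a short gap and then the same AP-1 letters. It was in 0.119% of all windows. Its count of 0 in the 11 windows was fixed by the absence of the AP-1 motif and adds nothing. A form without the gap was not counted. TTNNGNAA was in 6 of 11 and in 40.7% of all, GTGGGNG in 5 of 11 and in 31.6%, GGGCGG in 6 of 11 and in 35.7%, and ACGTCA in 1 of 11 and in 7.51%. The windows cover only the sequence next to the start, and these matches describe letters, not bound sites.

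Library totals ranged from 31730041 to 39888022 counts. Libraries are numbered by table column, 5 to 8 for Batf2-/- and 1 to 4 for WT. On the first principal component of log2 CPM (counts scaled by library size), which held 42.5% of the variance, the scores were -34.95, -16.2, -1.85 and 28.9 in Batf2-/- libraries 5 to 8 and -16.7, -7.73, 4.72 and 43.9 in WT libraries 1 to 4. The scores followed the column order in both genotypes, with library 8 and library 4 farthest from the others of their genotype. A fit with a block that matched libraries by table position (5 with 1, 6 with 2, 7 with 3 and 8 with 4) was therefore set beside the test between genotypes for many results where the calls differed. It called 12.5% of all tested genes. Batf2 had 0 counts in every Batf2-/- library and between 138 and 189 CPM in the WT libraries, which fits the labels. All 14 alveolar macrophage markers were detected at a summed level of 17117 to 25919.9 CPM in Batf2-/- and 12397.5 to 20024 CPM in WT libraries. Of these 14, 1 rose and 13 did not pass, with 9 above 0 and 5 below 0 on the log2 scale. With the block 4 rose (Car4, Ear2, Adgre1 and Csf1r) and 2 fell (Siglecf and Pparg). Siglecf stood at 64.9 ± 10.1 CPM in Batf2-/- and 77.7 ± 6.04 CPM in WT (edgeR adjusted p = 0.699, and 0.0169 with the block). Car4, a membrane-bound carbonic anhydrase, stood at 93.4 ± 9.60 CPM in Batf2-/- and 47.1 ± 4.55 CPM in WT (edgeR adjusted p = 0.00501, called under all 16 alternatives), and Chil3, a chitinase-like protein, at 6291 ± 2055 CPM in Batf2-/- and 3316 ± 613 CPM in WT without overlap (adjusted p = 0.147).

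Per length, the pathway was dominated by Ptgs2 and Ptges3 in both genotypes, as shown in the plot of TPM, in which counts are scaled by gene length and library total. Ptgs2 averaged 309 ± 140.2 TPM in Batf2-/- and 508 ± 169.7 TPM in WT (SD, n = 4 each), and was the 509th most abundant gene by TPM in Batf2-/- and the 327th in WT. Ptges3, the constitutive cytosolic synthase that is also the Hsp90 co-chaperone p23, averaged 292 ± 25.2 TPM in Batf2-/- and 316 ± 21.5 TPM in WT, and its libraries overlapped those of Ptgs2. Ptges came next at 136 ± 35.8 TPM in Batf2-/- and 56.7 ± 3.30 TPM in WT, and its libraries lay below all those of Ptges3.

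Pla2g4a came next at 25.3 ± 5.24 TPM in Batf2-/- and 33.6 ± 4.86 TPM in WT. With the longest transcript in place of all exons as length it reached 48.4 TPM in WT, slightly above the 47.5 TPM of Ptges, so their order in WT rests on the length used. Ptges2, a membrane-associated synthase, followed at 13.4 ± 1.05 TPM in Batf2-/- and 12.9 ± 1.65 TPM in WT. The receptors and Alox5 lay lower and partly overlapped each other: in Batf2-/- their order was Ptger4, Alox5 and Ptger2 with means of 4.72, 3.84 and 2.70 TPM, and in WT it was Ptger2, Ptger4 and Alox5 with 4.97, 4.61 and 2.74 TPM. With the longest transcript as length, the WT means were 6.32 TPM for Ptger4 and 5.44 TPM for Ptger2. The order of the receptors in WT thus also rests on the length used. Ptgs1 and Hpgd were near the detection limit, below 1 TPM in every library.

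**Figure D1:**
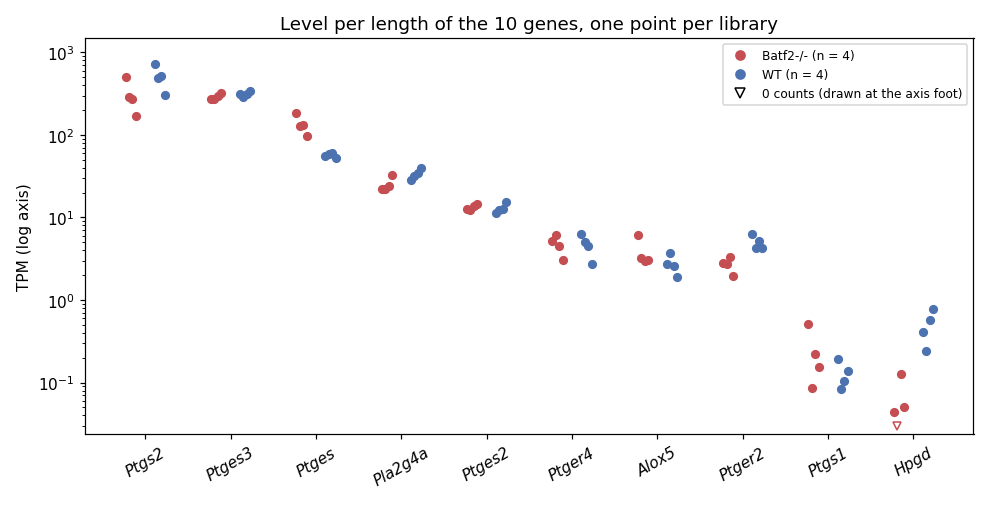
Level of each of the 10 genes in TPM (log axis), 1 point per library, Batf2-/- in red left of WT in blue. Ptgs2 and Ptges3 top the order in both genotypes, and Hpgd is at 0 counts in 1 Batf2-/- library.

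Of the 10 genes, 8 passed the filter on low counts and were tested; Ptgs1 and Hpgd were not. By edgeR's quasi-likelihood test with Benjamini-Hochberg adjustment over 11083 genes, 1 of the 8 rose (Ptges), 1 fell (Ptger2) and 6 did not pass. With the block by table position, 1 rose (Ptges) and 3 fell (Ptgs2, Pla2g4a and Ptger2). Of all tested genes 1.11% passed the test between genotypes, 0.55% higher and 0.559% lower in Batf2-/-, and 12.5% passed with the block. The groups did not overlap for the same 2 of the 8 genes, as for 6.33% of all tested genes. The median log2 fold change of the 8 was -0.05, against -0.01 over all tested genes.

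**Figure D2:**
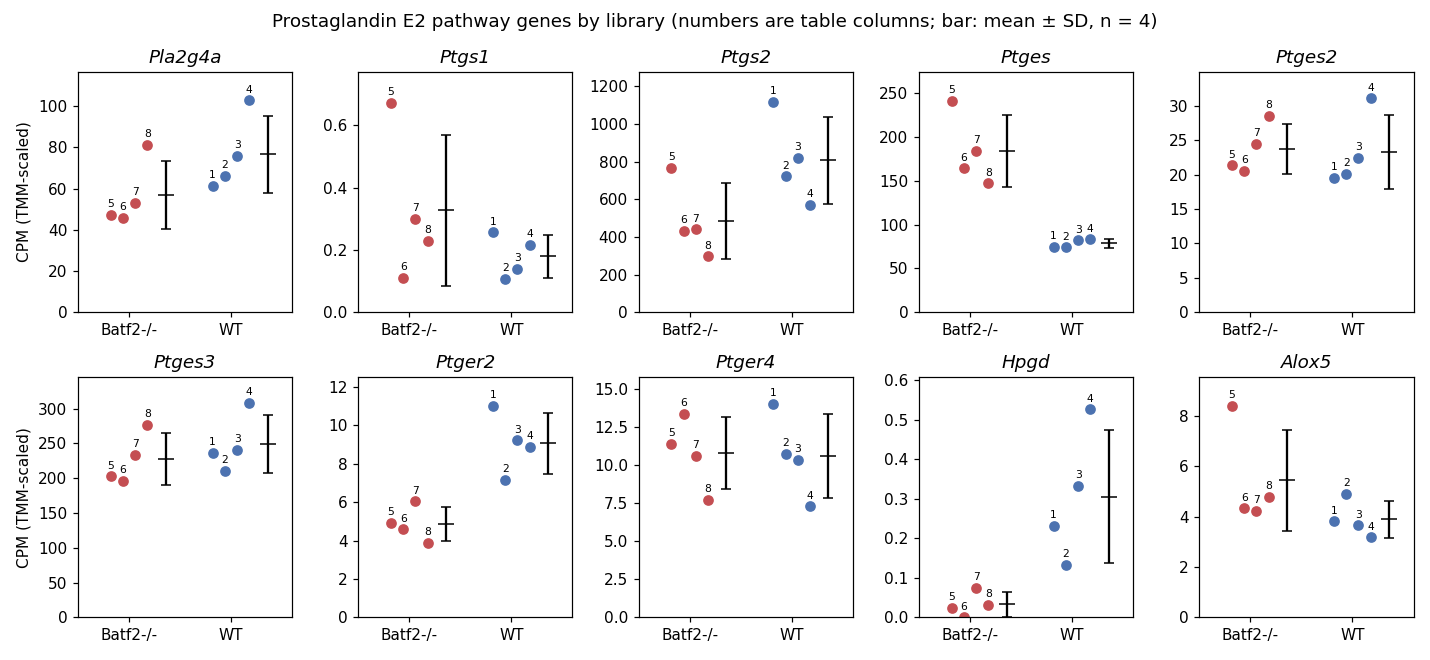
CPM of the 10 genes in each library, with the table column beside each point, Batf2-/- left of WT, and the mean ± SD of 4 libraries as a bar. Ptges (higher), Ptger2 (lower) and Hpgd (lower) have Batf2-/- libraries wholly apart from WT libraries.

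Substrate release and cyclooxygenase. Ptgs2 (ENSMUSG00000032487; GRCm38 chromosome 1, 150100031 to 150108227, plus strand) stood at 769, 433, 439.6 and 297 CPM in Batf2-/- libraries 5 to 8, against 1119, 722, 819 and 569 CPM in WT libraries 1 to 4. Only library 5 of the Batf2-/- pools reached into the WT range, where it lay above libraries 2 and 4. The log2 fold change was -0.74 ± 0.30 (SE), a level 1.67-fold lower on average that did not pass (edgeR adjusted p = 0.496, unadjusted p = 0.0336). Within a genotype the highest library exceeded the lowest 2.59-fold in Batf2-/- and 1.97-fold in WT, and the lowest was library 8 and library 4. Without libraries 4 and 8 the adjusted p was 0.293. With the block by table position Ptgs2 passed (log2 fold change -0.78, adjusted p = 1.24e-04), and in each of the 4 matched pairs the Batf2-/- library was below the WT library.

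Pla2g4a (ENSMUSG00000056220; chromosome 1, 149829618 to 149961290, minus strand), whose gene neighbours Ptgs2, stood at 47.3, 46.0, 53.2 and 81.2 CPM in Batf2-/- libraries 5 to 8, against 61.4, 66.2, 75.8 and 103 CPM in WT libraries 1 to 4. The groups overlapped through library 8, which exceeded WT libraries 1 to 3. The log2 fold change of -0.43 ± 0.22 (SE) did not pass (edgeR adjusted p = 0.732). It passed with the block by table position (-0.44, adjusted p = 4.44e-04), the Batf2-/- library being the lower of each matched pair. Ptgs1 (chromosome 2, 36230426 to 36252272, plus strand) had 27, 4, 12 and 7 counts in Batf2-/- libraries 5 to 8, against 10, 4, 5 and 7 counts in WT libraries 1 to 4. The sums were 50 counts in Batf2-/- and 26 in WT, and the libraries overlapped (two-sided exact permutation test over 70 splits, p = 0.286). Library 5 held 27 of the 50 counts, and the log2 ratio of mean CPM, 0.87 over all libraries, was 0.25 without it. Per length, Ptgs2 was at least 969 times as abundant as Ptgs1 in every library, so nearly all cyclooxygenase mRNA of these cells was Ptgs2.

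Terminal synthases. Ptges (ENSMUSG00000050737; chromosome 2, 30889471 to 30929863, minus strand) encodes microsomal prostaglandin E synthase 1, which is induced together with Ptgs2 by bacterial products. It stood at 241, 164, 184 and 147 CPM in Batf2-/- libraries 5 to 8, against 74.7, 74.1, 81.9 and 83.1 CPM in WT libraries 1 to 4. Every Batf2-/- pool was well above every WT pool, and the WT pools were close together. The mean was 184 ± 40.8 CPM in Batf2-/- and 78.4 ± 4.70 CPM in WT (SD, n = 4 each), a rise of 2.35-fold (log2 fold change 1.23 ± 0.16 SE; edgeR adjusted p = 0.00625). The call held when any single library was left out (adjusted p from 0.00457 to 0.0388) and without libraries 4 and 8 (0.00230). In bulk RNA, more cells of a type and more RNA per cell cannot be told apart.

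The other 2 terminal synthases did not pass. Ptges2 (chromosome 2, 32395896 to 32405772, plus strand), though it lies on the same chromosome, stood at 23.8 ± 3.65 CPM in Batf2-/- and 23.3 ± 5.36 CPM in WT, a log2 fold change of 0.03 ± 0.18 (SE; edgeR adjusted p = 1.00). Ptges3 (chromosome 10, 128058954 to 128077272, plus strand) stood at 227 ± 37.0 CPM in Batf2-/- and 249 ± 41.6 CPM in WT, a log2 fold change of -0.13 ± 0.16 (SE; adjusted p = 1.00). Ptges made up 39.1%, 31.2%, 29.8% and 22.3% of the summed TPM of the 3 synthases in Batf2-/- libraries 5 to 8, against 14.7%, 16.0%, 15.6% and 12.7% in WT libraries 1 to 4. Ptges3 remained the most abundant of the 3 in every library.

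The genes for the inducible enzyme pair thus stood in a different ratio in the 2 genotypes. Ptges TPM over Ptgs2 TPM was 0.365, 0.442, 0.487 and 0.577 in Batf2-/- libraries 5 to 8, against 0.0778, 0.120, 0.117 and 0.170 in WT libraries 1 to 4. All 4 Batf2-/- values exceeded all WT values, with means of 0.468 ± 0.0884 in Batf2-/- and 0.121 ± 0.0379 in WT (SD, n = 4 each). The ratio was formed after both levels were known, so it is given as a description with no test. mRNA levels do not measure the lipid, which was not assayed in the data used here.

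**Figure D3:**
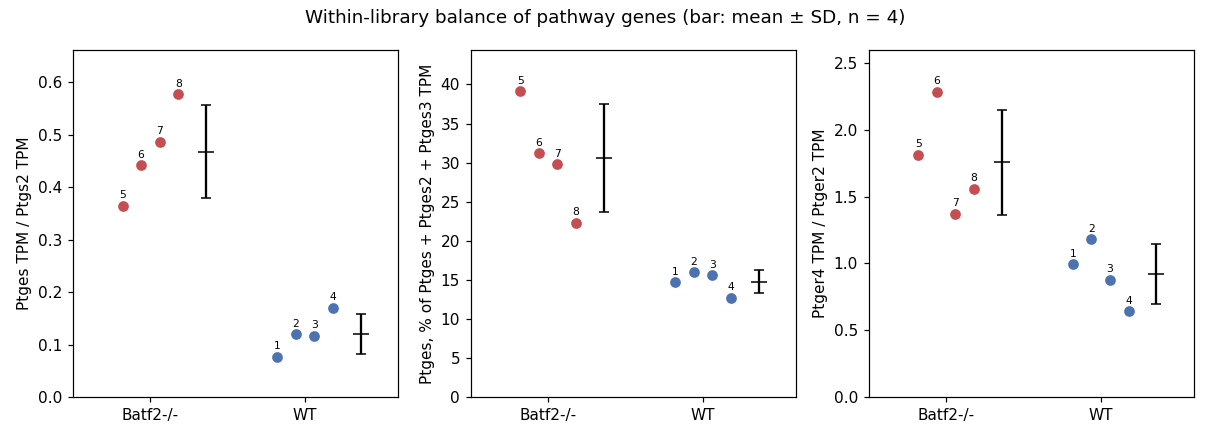
Ratio of Ptges to Ptgs2 TPM (left), share of Ptges in the summed TPM of the 3 terminal synthases (middle) and ratio of Ptger4 to Ptger2 TPM (right) in each library, Batf2-/- left of WT, with mean ± SD of 4 libraries. In all 3 panels the 4 Batf2-/- libraries lie above the 4 WT libraries.

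Receptors. Ptger2 (ENSMUSG00000037759; chromosome 14, 44988195 to 45003820, plus strand), the EP2 receptor gene, stood at 4.93, 4.58, 6.05 and 3.88 CPM in Batf2-/- libraries 5 to 8, against 11.01, 7.15, 9.21 and 8.89 CPM in WT libraries 1 to 4. All Batf2-/- pools were below all WT pools, with 119 to 242 counts behind each Batf2-/- value and 269 to 429 behind each WT value. The mean was 4.86 ± 0.906 CPM in Batf2-/- and 9.07 ± 1.58 CPM in WT (SD, n = 4 each), and the level fell 1.86-fold (log2 fold change -0.90 ± 0.17 SE; edgeR adjusted p = 0.0475). The call was at the edge of the threshold. Leaving out any of libraries 1 to 8 ended it (adjusted p from 0.0517 without library 2 to 0.187 without library 3), as did leaving out libraries 4 and 8 (0.0702), while DESeq2, which called 2.71% of all genes it tested, gave 3.36e-04.

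Ptger4 (ENSMUSG00000039942; chromosome 15, 5206661 to 5244187, minus strand), the EP4 receptor gene, stood at 11.4, 13.4, 10.6 and 7.73 CPM in Batf2-/- libraries 5 to 8, against 14.02, 10.8, 10.4 and 7.31 CPM in WT libraries 1 to 4. The groups overlapped almost wholly, with a log2 fold change of 0.02 ± 0.22 (SE; edgeR adjusted p = 1.00). Ptger4 overlaps Ttc33 on the opposite strand, which had 751 to 1162 counts per library, and the strand setting of the count was not given, so the level of Ptger4 is uncertain. Per length, Ptger4 over Ptger2 was 1.81, 2.28, 1.37 and 1.56 in Batf2-/- libraries 5 to 8, against 0.994, 1.18, 0.880 and 0.642 in WT libraries 1 to 4, without overlap and, as a ratio formed after the fact, without a test. With the longest transcript as length, the mean ratio was 2.19 in Batf2-/- and 1.15 in WT.

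Breakdown and the leukotriene branch. Hpgd (ENSMUSG00000031613; chromosome 8, 56294585 to 56321043, plus strand) had 1, 0, 3 and 1 counts in Batf2-/- libraries 5 to 8, against 9, 5, 12 and 17 counts in WT libraries 1 to 4. The Batf2-/- libraries all lay below the WT libraries, as for 3.29% of tested genes, and mean CPM was 0.0331 ± 0.0312 in Batf2-/- and 0.306 ± 0.168 in WT (SD, n = 4 each; two-sided exact permutation test, p = 0.0286, the smallest that 4 against 4 libraries can give). At sums of 5 counts in Batf2-/- and 43 in WT, Hpgd was too low for the filter. Without the filter, where edgeR called 0.781% of genes, its adjusted p was 0.0822, and by DESeq2 it was 0.0197. Other lung cells also express Hpgd, so the epithelial marker list was set beside it. Its 12 genes summed to 10.3 to 19.0 CPM in Batf2-/- and 12.8 to 18.6 CPM in WT libraries, with 0 of 5 tested markers called, 4 of them above 0 on the log2 scale (median 0.14). Sftpc, a surfactant protein gene that defines alveolar type 2 cells, had 2, 1, 5 and 6 counts in Batf2-/- libraries 5 to 8 and 4, 4, 4 and 18 counts in WT libraries 1 to 4, so that 18 of the 30 WT counts came from library 4. Sftpb, another surfactant protein gene, had 4 counts in all Batf2-/- libraries together and 3 in WT. Cdh1, the epithelial cadherin gene, had 238 counts in Batf2-/-, 125 of them in library 5, and 106 in WT (adjusted p = 0.420). The part of such cells in the Hpgd difference was not tested.

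Alox5 (ENSMUSG00000025701; chromosome 6, 116410077 to 116461178, minus strand) stood at 8.42, 4.33, 4.23 and 4.79 CPM in Batf2-/- libraries 5 to 8, against 3.83, 4.92, 3.66 and 3.19 CPM in WT libraries 1 to 4. Library 5 was far above the others, which lay within the WT range, and the log2 fold change of 0.48 ± 0.24 (SE) did not pass (edgeR adjusted p = 0.711). Without library 5 it was 0.19. Alox5ap, the 5-lipoxygenase activating protein, stood at 57.7 ± 10.7 CPM in Batf2-/- and 40.9 ± 7.62 CPM in WT (adjusted p = 0.347). Cyp4f18, a leukotriene B4 hydroxylase of mouse myeloid cells, stood at 4.73 ± 1.02 CPM in Batf2-/- and 2.64 ± 0.259 CPM in WT (adjusted p = 0.0665). None of the 8 tested genes of the leukotriene and lipoxin list passed, and all 8 had a log2 fold change above 0 (median 0.11). With the block by table position Cyp4f18 (adjusted p = 0.00168) and Alox5ap (1.09e-04) passed.

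**Figure D4:**
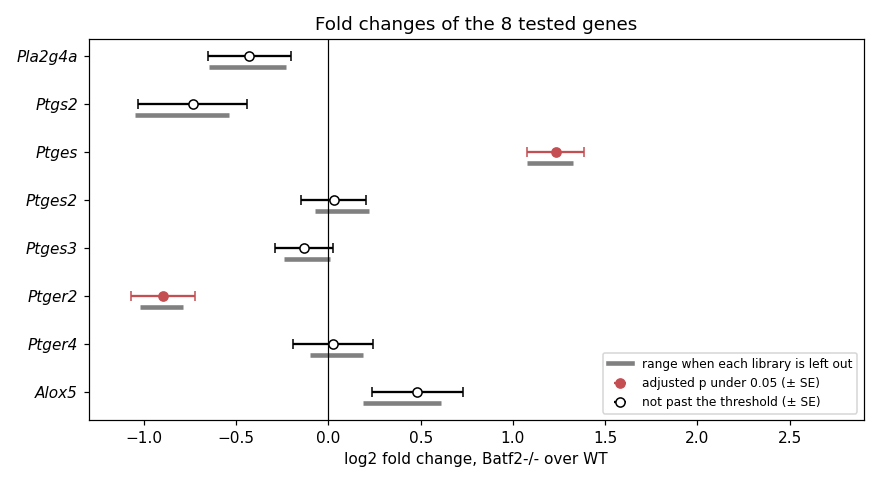
Log2 fold changes of the 8 tested genes, Batf2-/- over WT, with their SE, in red where the adjusted p was under 0.05 (Ptges and Ptger2). Grey bars give the range of the value when each library is left out in turn, which crosses 0 for Ptges2, Ptges3 and Ptger4.

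Around the 10 genes, 8 lists of pathway genes held 125 genes, of which 93 were tested, 2 rose and 3 fell (5.38%, against 1.11% of all tested genes). With the block by table position 16 rose and 15 fell (33.3%, against 12.5% of all tested genes). The lists included Il1b and Nr4a3, which were already known to change in these libraries when the lists were written. None of 15 tested genes of arachidonate release passed, and with the block 1 rose (Pla2g7) and 3 fell (Daglb, Lpcat3 and Anxa1). Lpcat2, which returns acyl chains to lysophospholipids in macrophages, stood at 30.2 ± 7.95 CPM in Batf2-/- and 19.2 ± 1.87 CPM in WT (adjusted p = 0.189), and Pla2g4b at 1.31 ± 1.01 CPM in Batf2-/- and 0.256 ± 0.189 CPM in WT (adjusted p = 0.255). None of 5 tested synthases of other prostanoids passed in either fit, with Tbxas1, the thromboxane synthase, at 14.0 ± 3.78 CPM in Batf2-/- and 15.1 ± 1.30 CPM in WT, and Hpgds, a prostaglandin D2 synthase, at 1.97 ± 0.705 CPM in Batf2-/- and 2.45 ± 0.719 CPM in WT (adjusted p = 1.00 each).

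The list of further prostanoid receptors also held the other prostaglandin E2 receptor genes, Ptger1 (EP1) and Ptger3 (EP3). In it Ptger3, Ptgdr and Ptgfr had 0 counts in all 8 libraries, and 0 of 3 tested genes passed. Ptger1 was low, with 67 counts in Batf2-/- and 51 in WT. Ptgir, the prostacyclin receptor gene, stood at 103 ± 26.0 CPM in Batf2-/- and 61.6 ± 16.0 CPM in WT (edgeR adjusted p = 0.311, and 1.81e-05 with the block by table position). Pparg, also one of the alveolar macrophage markers, went the other way without overlap. It stood at 8.11 ± 0.925 CPM in Batf2-/- and 10.1 ± 0.536 CPM in WT (edgeR adjusted p = 0.409, and 0.0255 with the block). None of 4 tested genes of transport and breakdown passed, while with the block 2 rose (Ptgr1 and Slco3a1), with Ptgr1, a reductase that acts after Hpgd, at 59.0 ± 14.5 CPM in Batf2-/- and 47.8 ± 14.6 CPM in WT (adjusted p = 0.992, and 0.0266 with the block). The exporter gene Abcc4 stood at 15.6 ± 4.21 CPM in Batf2-/- and 13.8 ± 3.69 CPM in WT (adjusted p = 1.00).

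Downstream of the receptors, 1 of 23 tested cyclic AMP signaling genes fell and none rose, while with the block by table position 3 rose and 3 fell. The gene called in both fits was Pde4b, the phosphodiesterase that degrades cyclic AMP in activated macrophages. It stood at 75.5, 82.1, 87.9 and 74.8 CPM in Batf2-/- libraries 5 to 8, against 116, 114, 129 and 123 CPM in WT libraries 1 to 4. The groups were tight and apart, and the level fell by 0.59 on the log2 scale (edgeR adjusted p = 0.0277). The call ended without any of libraries 1 to 7 (0.0565 to 0.161). Gnas, the G protein subunit that couples EP2 and EP4 to adenylyl cyclase, stood at 344 ± 61.4 CPM in Batf2-/- and 354 ± 46.1 CPM in WT (adjusted p = 1.00).

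The next list held genes that respond to cyclic AMP or CREB, and also genes of CREB factors and coactivators, Creb1 among them. Of its 16 tested genes, 1 rose (Nr4a3), 2 fell (Rgs2 and Creb1) and 13 did not pass. With the block by table position 4 rose and 3 fell, these 3 genes among them. Rgs2, a brake on G protein signaling, stood at 1.47, 1.46, 2.05 and 1.63 CPM in Batf2-/- libraries 5 to 8, against 2.95, 3.03, 4.02 and 4.68 CPM in WT libraries 1 to 4, a fall of 2.21-fold without overlap (edgeR adjusted p = 0.0294). The call ended when any of libraries 2 to 8 was left out (0.0522 to 0.162). Nr4a3 rose 3.92-fold (adjusted p = 0.0269, lost without library 2, 3, 5, 6 or 7, at 0.0676 to 0.115), and Creb1 fell 1.48-fold (0.0498, lost when any of libraries 1 to 7 was left out, at 0.107 to 0.236). Crem stood at 76.0 ± 20.8 CPM in Batf2-/- and 75.7 ± 22.9 CPM in WT (adjusted p = 1.00), and Il10 had 5 counts in all Batf2-/- libraries together and 0 in WT.

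**Figure D5:**
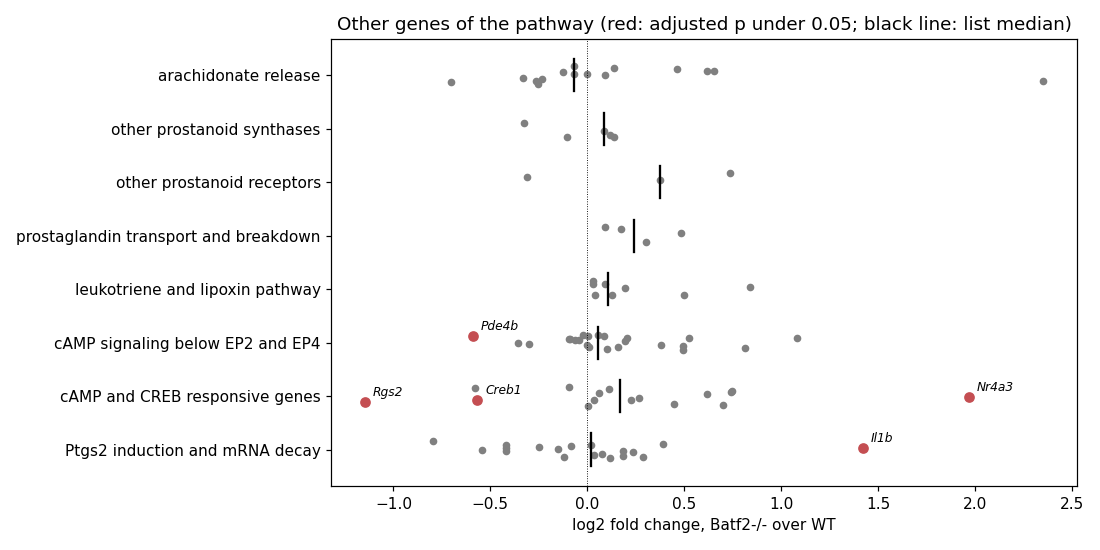
Log2 fold changes, Batf2-/- over WT, of the tested genes in the 8 pathway lists, 1 point per gene, with the list median as a black line. The 5 genes past the threshold are in red: Il1b and Nr4a3 to the right of 0, and Rgs2, Creb1 and Pde4b to the left.

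Among 19 tested regulators of Ptgs2 induction and mRNA decay, 1 rose (Il1b) and 18 did not pass. With the block by table position 3 rose (Il1b, Mapk14 and Zfp36) and 5 fell (Tnf, Nos2, Fos, Cebpd and Tlr4). Il1b, an inducer of both Ptgs2 and Ptges, rose 2.68-fold (edgeR adjusted p = 0.00626). Tnf stood at 3149 ± 573 CPM in Batf2-/- and 4206 ± 259 CPM in WT without overlap (adjusted p = 0.357, and 0.00310 with the block). Cebpd, a C/EBP factor, stood at 16.8 ± 2.24 CPM in Batf2-/- and 22.5 ± 1.39 CPM in WT without overlap (adjusted p = 0.225, and 0.0138 with the block). Egr1, a zinc finger factor known to act on Ptges, stood at 0.798 ± 0.276 CPM in Batf2-/- and 0.875 ± 0.215 CPM in WT (adjusted p = 1.00). Zfp36, which promotes decay of Ptgs2 mRNA, stood at 97.0 ± 25.3 CPM in Batf2-/- and 79.4 ± 15.6 CPM in WT (adjusted p = 0.975, and 0.0354 with the block).

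The genes most like Ptgs2 and Ptges over the 8 libraries were found by the root mean square distance of mean-centred log2 CPM, among 5892 other genes whose log2 CPM averaged 4 or more. Nearest to Ptgs2 were Oasl1, Bahd1, Mbnl2 and Rab43, at distances of 0.225 to 0.264 where the median gene lay at 0.587. None of these 4 passed the test between genotypes (edgeR adjusted p from 0.0962 for Rab43 to 0.952 for Oasl1). Ptgs2 did not pass either, so this outcome follows in part from the choice by likeness. Nearest to Ptges were Car4, Il7r, Rhob and Il1b, at 0.183 to 0.220 where the median lay at 0.676, and their log2 fold changes ran from 0.99 to 1.42, a direction that likeness to Ptges fixes. Car4 is also one of the alveolar macrophage markers. Il7r, the interleukin 7 receptor gene, stood at 122 ± 21.4 CPM in Batf2-/- and 58.2 ± 10.3 CPM in WT. Rhob, a small GTPase gene, stood at 367 ± 61.7 CPM in Batf2-/- and 183 ± 21.8 CPM in WT.

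Markers of other cells that can carry Ptges or Ptgs1 were set beside these values. Of 12 neutrophil markers, 0 of 4 tested passed, and all 4 were above 0 on the log2 scale (median 0.58). The list summed to 32.7 to 54.1 CPM in Batf2-/- and 20.4 to 33.2 CPM in WT libraries. Cxcr2, a chemokine receptor gene, had 894 counts in Batf2-/- and 425 in WT, 2.08-fold as high without overlap (edgeR adjusted p = 0.122, and 7.41e-04 with the block by table position). S100a8 had 4159 counts in Batf2-/- and 2723 in WT (0.699, and 6.30e-04 with the block), while Ly6g, Elane, Mpo and Retnlg had 0 counts in all 8 libraries.

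Of 12 stromal and endothelial markers, 1 of 5 tested rose, and all 5 were above 0 (median 0.99). This was Pdgfrb, a pericyte and fibroblast receptor gene, at 2.00 ± 0.548 CPM in Batf2-/- and 0.708 ± 0.205 CPM in WT (edgeR adjusted p = 0.0376, lost without any of libraries 2 to 7, at 0.0749 to 0.161). Cdh5, the endothelial cadherin gene, had 130, 38, 63 and 16 counts in Batf2-/- libraries 5 to 8 and 18, 6, 13 and 4 counts in WT libraries 1 to 4. By CPM it was 5.70-fold as high without overlap (adjusted p = 0.112, and 1.68e-04 with the block). Pdgfra had 64 counts in Batf2-/- and 31 in WT (adjusted p = 0.311), and Pecam1, below the filter, had 39 in Batf2-/- and 21 in WT, both without overlap in CPM. The list summed to 23.0 to 46.3 CPM in Batf2-/- and 20.5 to 34.9 CPM in WT libraries, most of it Vwf. The collagen genes Col1a1 and Col3a1 were near 0 in both genotypes, with 0 counts each in Batf2-/- and with 2 and 1 counts in WT.

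Of 10 platelet markers, whose cells carry Ptgs1, 0 of 2 tested passed, and the sum of 11.4 to 15.6 CPM in Batf2-/- and 12.9 to 14.8 CPM in WT was mostly Clec1b. Of the 2, Pf4 was above 0 on the log2 scale and Clec1b below 0 (-0.09 with the block by table position, adjusted p = 0.548). Pf4, platelet factor 4, had 46, 11, 19 and 32 counts in Batf2-/- libraries 5 to 8 and 8, 6, 11 and 8 counts in WT libraries 1 to 4 (edgeR log2 fold change 1.68, adjusted p = 0.186, and 0.0185 with the block). Itgb3, an integrin gene below the filter, had 51 counts in Batf2-/-, 41 of them in library 5, and 8 in WT. Ppbp, Gp9 and Gp1bb were at 0 counts throughout. Mast cell markers summed to 0.554 to 1.15 CPM in Batf2-/- and 0.277 to 0.513 CPM in WT libraries, without overlap. Of these 10 genes, Mcpt4, Mcpt8, Fcer1a, Tpsb2 and Cma1 had 0 counts in all 8 libraries. Only Hdc was tested, and it did not pass (edgeR adjusted p = 0.483, and 0.0993 with the block). Lymphocyte markers, none of which passed the filter, summed to 0.442 to 3.91 CPM in Batf2-/- and 0.495 to 1.00 CPM in WT libraries.

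Library 5 had the highest lymphocyte sum, with 66 counts of Cd4, 32 of Trac and 26 of Cd3e, and the most Pf4, Itgb3, Cdh5 and Cdh1. It was also the highest of the 8 libraries for Ptges, Ptgs1 and Alox5. Without it Ptges still passed (log2 fold change 1.07, edgeR adjusted p = 0.00796). The part of these other cells in the values of Ptges, Ptgs1 and Alox5 was not tested.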

How the data were processed

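Messenger RNA of 8 pools was sequenced from a stranded library kit, per the labels' protocols. Per the file headers, the authors deposited total counts per gene without normalization. The submitters' processing notes name GRCm38 (mm10). Aligner, counter and strand setting: not given in the sources used here. Columns were grouped by the genotype heading above them and carry no labelled replicate number. The p-values of the fits set the genotype difference against the spread between pools of a genotype. With the block by table position, it is set against the spread left after the matching.

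Counts were tested with edgeR 4.0.16 in R 4.3.3 (TMM, default filter, robust quasi-likelihood, genotype only) over 11083 genes, with a threshold of 0.05 on the Benjamini-Hochberg adjusted p. The SE is the log2 fold change over the square root of F. CPM are counts scaled by TMM library sizes. TPM used the union of exons in GENCODE's GRCm38 annotation. On simulated counts (11008 genes), the fit found 25.4%, 79.1% and 98.5% of genes changed 1.5-, 2- and 4-fold, with 4.93% false calls. The simulated libraries were drawn independently, without the deviations shared by table position given below, and genes of low CPM were left unchanged. These rates need not hold for the real libraries. Alternatives were DESeq2 1.42.0, limma 3.58.1 voom, other scalings and filters, leaving out libraries and a block by table position. Table position is not a labelled replicate number. Over the tested genes, though, deviations from the genotype means correlated between libraries at the same position (5 with 1 at 0.598, 6 with 2 at 0.501, 7 with 3 at 0.272, 8 with 4 at 0.759). Each was the highest of that Batf2-/- library with any WT library. Calls or values of the blocked fit are therefore printed beside many, not all, of the results whose call it changes. Members, lists and alternatives were chosen with earlier results of these data known. Of the lists, genes past the threshold or with the smallest p were named, and others of known role were added after their values were seen.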

Additional observations from a re-analysis of the deposited data

Results flagged for a closer look

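Alox5 in library 5 of the Batf2-/- pools, at 8.42 CPM, stood apart from libraries 7, 6 and 8 at 4.23, 4.33 and 4.79 CPM. The gap was 0.865 of the group's range, above Dixon's critical value for 4 samples. It was 1 such value among the 20 groups of 4 checked for the 10 genes, and chance flags about 1 in 20.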

How the results depend on the processing

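Ptges rose under all 16 alternatives (adjusted p from 4.35e-11 to 0.0388). Ptger2 was lower under all 16 and passed under 4. It missed the threshold by limma-voom (0.0520), with library totals only (0.0576) and with a filter of 1 CPM in 4 libraries (0.0558), as well as without single libraries. The members called, 2 by edgeR over all libraries, were therefore 1 by limma-voom, with library totals, with the stricter filter and without libraries 4 and 8, and 1 each time a single library was left out. Over all genes, 123 calls became 343 by DESeq2, 206 without libraries 4 and 8, and 43 to 142 when each library was left out. Of the pathway genes, 5 calls became 12 by DESeq2 and 1 to 5 when each library was left out. The cause of these differences was not tested. Fits that leave libraries out also hold fewer samples.

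No paired analysis by labelled replicate was possible because the columns carry no replicate number. A replicate block by table position, a pairing that the labels do not give, called 1390 genes (12.5%), 31 pathway genes and 4 of the 10 members, adding Ptgs2 and Pla2g4a. The block changed the call of no other tested member. Hpgd and Ptgs1 rest on few counts, and depth limits both. Without library 5 the log2 ratio of Ptgs1 was 0.25 in place of 0.87.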
